A study of Mus musculus with 20 samples.

Results

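Laminins and integrins are the ligands and receptors that hold cells to basement membranes. The mouse genes of both families were followed here in cultured embryos and their visceral yolk sacs. Members were taken by symbol: every alpha and beta integrin chain and every alpha, beta and gamma laminin chain that the deposited expression table names. This gave 35 genes of 20794 measured, read by 75 of 38367 probe sets. They comprise 16 integrin alpha, 8 integrin beta, 5 laminin alpha, 3 laminin beta and 3 laminin gamma genes. One probe set stood for each gene, the one with the highest mean level over the 20 arrays.

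The samples are CD-1 mouse conceptuses that were taken from untreated dams on gestational day 8, grown for 24 h in whole embryo culture, and dissected on day 9 into the embryo and the visceral yolk sac. Culture medium held 0.01% dimethyl sulfoxide (the control) or 100 µg/ml mono-2-ethylhexyl phthalate (MEHP), the active metabolite of a common plasticizer. Conceptuses were sorted by whether the neural tube had a defect (NTD): in either tissue 3 arrays are controls free of NTD, 1 is a control with NTD, and MEHP has 3 arrays of each kind. The sources used here do not say whether a sample holds 1 conceptus or several pooled, so p-values measure only the spread between these samples, which may be technical.

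A laminin is a trimer of an alpha, a beta and a gamma chain that polymerizes into the sheet on which a basement membrane is built. An integrin is a pair of an alpha and a beta chain that spans the cell membrane, and the alpha chain largely sets which ligand is bound. Laminin-111 (Lama1, Lamb1, Lamc1) is the main laminin of the early conceptus, laminin-511 (Lama5, Lamb1, Lamc1) follows it, and laminins are bound by integrins that pair Itgb1 with Itga3, Itga6 or Itga7, by the pair of Itga6 with Itgb4, and by dystroglycan (Dag1).

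Values are log2 levels. Of the 35 members, 16 lay at or above the level of the median gene (5.72) and 19 below it. The latter are called dim, and for them a level near the floor hides part of any difference. The floor is shown by 9 nonspecific control probe sets of the array, which averaged 3.65 to 4.08 per array. These were lower on MEHP arrays than on control arrays, by 0.23 in embryos (3.70 to 3.80 against 3.92 to 4.05) and by 0.21 in yolk sacs (3.70 to 3.83 against 3.87 to 4.08). Neither pair of ranges overlaps, and the two-sided exact permutation p was 0.1, the smallest that 3 arrays against 3 can give. A fall of a dim member by about this much cannot be told apart from this shift. Itga7 and Itgam stood at or below 4.08 on every array. Array medians over all probe sets were 4.81 to 4.90, and the number of arrays limits the precision (the median SE of a difference was 0.0893 for embryos and 0.0800 for yolk sacs).

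The arrays match their tissue: all 10 visceral endoderm markers were higher in control yolk sacs (median difference -6.58, embryo minus yolk sac), and all 6 neural progenitor and all 6 cardiac markers were higher in control embryos. The median level of the visceral endoderm markers was 6.96 on control embryo array 2 and 7.52 on MEHP embryo array 3, against 4.88 to 6.4 on the other 8 embryo arrays and 12.6 to 13.0 on yolk sac arrays. Embryo results are therefore also given without those 2 arrays. Groups follow the authors' own comparison tables. By the sample headings of a second deposited table with the same values, 13 of the 20 arrays would belong elsewhere, and 8 to the other tissue.

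The promoters of 4 members that differed between tissues or with MEHP are shown first, because these are the genes whose levels the text turns on. Each window is 300 bases of the RefSeq promoter table (build GRCm38.p6) read 5′ to 3′ on the gene's strand. Lamb1 lies on the plus strand at chr12:31265043-31265342, Lamb2 on the plus strand at chr9:108479612-108479911, Itgb1 on the plus strand at chr8:128685404-128685703 and Itgb8 on the minus strand at chr12:119238227-119238526. Capitals mark GGGCGG, the core of the GC box bound by Sp and Klf factors, on either strand.
Lamb1: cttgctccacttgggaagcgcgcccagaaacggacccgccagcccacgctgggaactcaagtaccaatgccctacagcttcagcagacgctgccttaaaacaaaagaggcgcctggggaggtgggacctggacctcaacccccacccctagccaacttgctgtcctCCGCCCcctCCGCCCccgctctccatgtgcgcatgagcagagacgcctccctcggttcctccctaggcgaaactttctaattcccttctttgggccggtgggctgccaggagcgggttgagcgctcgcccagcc
Lamb2: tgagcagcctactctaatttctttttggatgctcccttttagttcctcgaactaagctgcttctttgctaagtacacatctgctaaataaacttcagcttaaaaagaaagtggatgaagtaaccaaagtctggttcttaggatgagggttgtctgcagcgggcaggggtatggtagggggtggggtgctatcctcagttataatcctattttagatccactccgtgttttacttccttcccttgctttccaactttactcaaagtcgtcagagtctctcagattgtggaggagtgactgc
Itgb1: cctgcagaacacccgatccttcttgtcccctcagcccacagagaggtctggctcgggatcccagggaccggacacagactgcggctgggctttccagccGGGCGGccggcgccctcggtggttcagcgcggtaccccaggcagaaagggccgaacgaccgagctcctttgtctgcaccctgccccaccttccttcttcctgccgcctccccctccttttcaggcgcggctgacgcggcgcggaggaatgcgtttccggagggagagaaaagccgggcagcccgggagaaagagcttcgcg
Itgb8: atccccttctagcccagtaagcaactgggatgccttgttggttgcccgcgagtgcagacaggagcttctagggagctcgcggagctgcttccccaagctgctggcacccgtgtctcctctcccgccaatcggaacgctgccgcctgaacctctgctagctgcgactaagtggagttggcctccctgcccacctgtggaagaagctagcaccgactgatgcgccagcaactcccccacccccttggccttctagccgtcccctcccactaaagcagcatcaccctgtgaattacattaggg

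The Lamb1 window holds 2 matches to GGGCGG, at -84 to -79 and -75 to -70 from the start, both on the reverse strand. The Itgb1 window holds 1 match, at -151 to -146. The Lamb2 and Itgb8 windows hold none. GGGCGG occurs on either strand in 35.7% of all 32851 promoter windows of this length, and in 12 of the 25 windows found for 22 members outside chromosome 18. The letters GATAA, the core of the GATA factor motif, were searched on both strands too and occur in 0 of these 4 windows, in 2 of the 25 member windows and in 25.4% of all windows.

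The first comparison, between control embryos and control yolk sacs, asks which laminins and receptors each tissue carries. The yolk sac was higher in 6 of the 11 laminin genes and in the receptor chains Itga3 and Itgb4, while the embryo was higher in Itga6 and in a different set of integrins led by Itgb8, Itga9 and Itga8. Of 35 members, 17 were higher in yolk sac, 7 were higher in embryo and 11 did not pass (limma, Benjamini-Hochberg adjusted p at most 0.05 over all genes). This is 68.6% of the members, where 51.3% of all genes passed (28.4% with the embryo higher, 22.8% with it lower). Genes at or above the median level passed in 74.6% of cases and dim genes in 27.9%, and the members of these kinds passed in 15 of 16 and 9 of 19 cases. The members' median difference was -0.25 (embryo minus yolk sac), against 0.03 over all genes. Fewer cells of a type and less RNA per cell cannot be told apart in whole tissue, here or in the comparisons that follow.

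**Figure D1:**
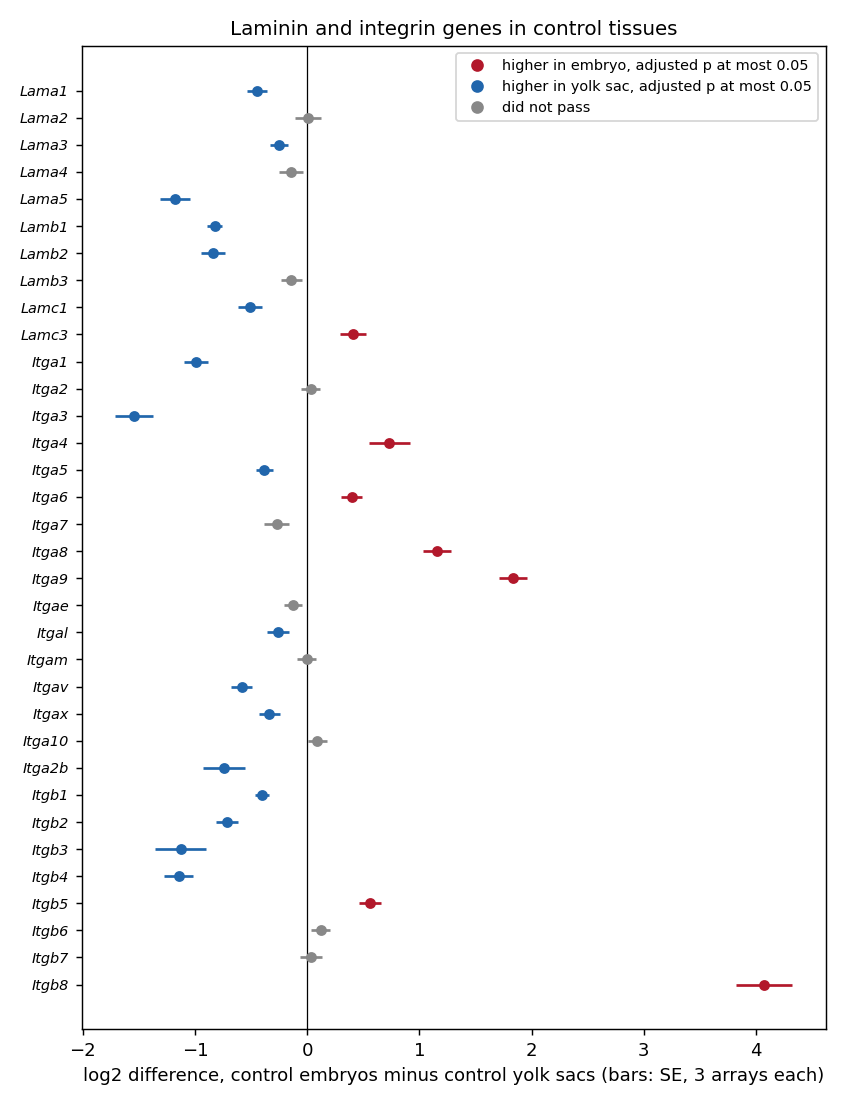
Log2 difference between control embryos and control yolk sacs (x axis, embryo minus yolk sac) for laminin and integrin genes (y axis), with bars of 1 SE and 3 arrays in each tissue. Most laminin chains lie to the left (higher in yolk sac), and Itgb8 stands far to the right at 4.07.

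All 3 chains of laminin-111 were higher in yolk sac. Lamb1, the beta chain shared by laminin-111 and laminin-511, read 9.47, 9.62 and 9.51 in the 3 control embryos and 10.38, 10.33 and 10.38 in the 3 control yolk sacs. Every yolk sac lay above every embryo (-0.83 ± 0.064 SE, adjusted p = 5.31e-09, or 1.77-fold more in yolk sac). Lama1, the alpha chain that defines laminin-111, read 8.07, 8.13 and 7.79 against 8.31, 8.47 and 8.55 (-0.45 ± 0.089, adjusted p = 0.000343). Lamc1, the gamma chain of most laminins, read 8.42, 8.68 and 8.2 against 9.11, 8.89 and 8.81 (-0.51 ± 0.108, adjusted p = 0.000678). In both genes the tissues did not overlap.

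Lama5, the alpha chain of laminin-511, read 6.63, 6.33 and 6.18 in embryos and 7.80, 7.34 and 7.52 in yolk sacs (-1.18 ± 0.133, adjusted p = 6.95e-07, or 2.26-fold more in yolk sac), and the mean of all its probe sets gave -0.76. Lamb2, a beta chain that replaces Lamb1 in several laminins, read 5.49, 5.53 and 5.80 against 6.53, 6.29 and 6.51 (-0.84 ± 0.108, adjusted p = 3.4e-06). Both were separated with no overlap.

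Over all 11 laminin genes 6 were higher in yolk sac, 1 was higher in embryo and 4 did not pass. The sixth was the dim Lama3, an alpha chain of epithelial laminins (4.46 in embryo and 4.71 in yolk sac, -0.25 ± 0.084, adjusted p = 0.0188), which no longer passed without control embryo 1 (adjusted p = 0.0895), control embryo 3 (0.0512) or control yolk sac 3 (0.0733). Lamc3 was higher in embryo (4.76 against 4.35, 0.41 ± 0.116, adjusted p = 0.00655) and is dim as well. Lama2, the muscle laminin chain (0.01, adjusted p = 0.97), and Lama4, the chain of vessel laminins (-0.14, 0.292), did not pass. Nor did Lamb3, a beta chain of epithelial laminins (-0.14, 0.234), although it passed without control yolk sac 1 (-0.24, adjusted p = 0.0333).

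The laminin-binding integrins did not all follow their ligands. Itga3, the chain that pairs with Itgb1 to bind laminin-511, was higher in yolk sac. It read 6.48, 6.2 and 6.60 in control embryos and 8.35, 7.54 and 8.03 in control yolk sacs (-1.54 ± 0.167, adjusted p = 4.09e-07, or 2.91-fold more in yolk sac), and the mean of all its probe sets gave -0.86. Itgb4, the beta chain of hemidesmosomes, read 4.51, 4.46 and 4.18 against 5.72, 5.34 and 5.52 (-1.14 ± 0.130, adjusted p = 7.59e-07). Both were separated with no overlap.

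Itga6 ran the other way. It read 9.40, 9.41 and 9.33 in embryos and 9.02, 9.18 and 8.75 in yolk sacs, so every embryo lay above every yolk sac (0.40 ± 0.095, adjusted p = 0.00179). Its second probe set differed in the same direction (0.55). Itgb1, the common beta chain, read 8.52, 8.52 and 8.72 against 8.95, 9.01 and 9.0 (-0.40 ± 0.064, adjusted p = 4.07e-05). Dag1 (10.64 and 10.70, -0.06, adjusted p = 0.373) and Itga7, which was at the floor (-0.27, 0.0528), did not pass.

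Set side by side, 10 pairs of a laminin alpha chain and a receptor (an integrin chain or dystroglycan) were read. Both genes passed in the same direction in 3 pairs, all higher in yolk sac: Lama5 with Itga3 (-1.18 and -1.54), Lama3 with Itga3 (-0.25 and -1.54) and Lama3 with Itgb4 (-0.25 and -1.14). They passed in opposite directions in 2 pairs, Lama1 with Itga6 (-0.45 and 0.40) and Lama5 with Itga6 (-1.18 and 0.40). In 3 pairs 1 gene passed, and in 2 neither did. Pairs, here and below, share genes (such as Itga3, Lama3 and Itga6 here), so they are not separate observations. The dim Lama3 also lost its call in some fits with 1 array left out, as given above. The 2 integrin chains of the Itga6 and Itgb4 receptor also parted, at 0.40 and -1.14.

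The integrins that bind other ligands split by tissue. Itgb8, which pairs with Itgav to bind latent TGF-beta, read 7.28, 8.01 and 8.44 in control embryos and 3.66, 3.96 and 3.90 in control yolk sacs. The yolk sac values lie within the range of the nonspecific probe sets, so the difference of 4.07 ± 0.247 (adjusted p = 2.25e-10, or 16.8-fold) is limited by the floor. Its partner Itgav, the vitronectin receptor chain, was higher in yolk sac (9.53 and 10.12, -0.58 ± 0.094, adjusted p = 4.33e-05). Itgb5, another partner of Itgav, was higher in embryo (9.04 and 8.48, 0.56 ± 0.098, adjusted p = 0.000108).

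Itga9, a receptor chain for tenascin and osteopontin, read 8.36, 8.34 and 8.24 in embryos and 6.43, 6.70 and 6.31 in yolk sacs (1.84 ± 0.124, adjusted p = 9.66e-10). Itga8, the nephronectin receptor chain, was 7.89 against 6.73 (1.15 ± 0.126, adjusted p = 4.36e-07), and its ligand gene Npnt was higher in embryo as well (0.64 ± 0.209, adjusted p = 0.0163). Itga4, the receptor chain for Vcam1, was 5.59 against 4.86 (0.73 ± 0.182, adjusted p = 0.00245), and Vcam1 itself was 6.17 against 5.62 (0.55 ± 0.126, adjusted p = 0.00129). Itga5, the fibronectin receptor chain, was lower in embryo (5.31 and 5.70, -0.38 ± 0.076, adjusted p = 0.000362), as was fibronectin, Fn1 (10.81 and 11.94, -1.12 ± 0.093). Vitronectin, Vtn, was 6.51 in embryo and 6.05 in yolk sac and did not pass, while its receptor chain Itgav was higher in yolk sac. Over all 28 pairs of partners read (laminin and receptor, alpha and beta chain, integrin and other ligand), both genes passed in the same direction in 13, in opposite directions in 8, 1 gene passed in 4 and neither in 3. Opposite pairs of integrin chains were Itga6, Itga8 and Itga9 with Itgb1, Itga6 with Itgb4, and Itgav with Itgb5 and Itgb8.

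Of the blood cell integrins both platelet genes and 3 of 6 leukocyte genes were higher in yolk sac, the first site of blood formation. Itga2b and Itgb3, the chains of the platelet fibrinogen receptor, differed by -0.74 ± 0.189 (adjusted p = 0.00298) and -1.13 ± 0.225 (0.000377). The 3 leukocyte genes are all dim: Itgb2 (-0.71 ± 0.098, adjusted p = 7.08e-06), Itgax (-0.34 ± 0.094, 0.00563) and Itgal (-0.26 ± 0.098, 0.0359). The other 3, Itgb7 (0.03), Itgam and Itgae (-0.13), did not pass. Itgal no longer passed without control embryo 1 (adjusted p = 0.115) or 2 (0.129), or without control yolk sac 2 (0.138) or 3 (0.104). The collagen receptor chain Itga1 was also higher in yolk sac (-0.99 ± 0.108, adjusted p = 4.87e-07).

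Taking the mean of all of a gene's probe sets, in place of the brightest, kept these directions but made several tissue differences smaller by over 1.5 times. Among the alpha chains Itga1 was then -0.57, Itga4 0.35, Itga5 -0.14, Itga8 0.70, Itga9 1.17, Itgal -0.17 and Itgav -0.18. Itgb1 was then -0.24, Itgb3 -0.54 and Lamc3 0.24. All of these but Itgal still passed.

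Markers of the blood cells moved the same way between tissues. Of 7 megakaryocyte and platelet markers 5 were higher in yolk sac and 0 in embryo (summed level 9.84 to 10.36 against 8.94 to 9.33), and of 8 macrophage and leukocyte markers 6 and 0 (9.61 to 9.97 against 7.99 to 8.16). Over all genes 22.8% were higher in yolk sac and 28.4% in embryo. The part of these cells in the integrin differences was not tested. The 6 members with no tissue call outside the laminins and Itga7 were Itga2, Itga10, Itgae, Itgam, Itgb6 and Itgb7, with adjusted p from 0.213 to 0.973.

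Among genes that work with these families, the tissues also differed. Over all genes 51.3% passed (28.4% with the embryo higher, 22.8% with it lower), and of genes at or above the median level 74.6%. The list counts here and in the next paragraph are therefore not read as an excess. Of 22 basement membrane partners 8 were higher in embryo and 8 in yolk sac (median -0.03). The matrix protein genes Smoc2 (-2.37), Sparc (-1.40) and the laminin linker Nid2 (-1.32) led in yolk sac, and Fbln2 (1.5), Npnt (0.64) and Smoc1 (0.56) in embryo. Of 12 other laminin receptors 5 were higher in embryo, led by Sdc1 (0.87), Sdc3 (0.85) and Utrn (0.80), and 4 in yolk sac, led by the syndecan Sdc4 (-2.69), the Lutheran antigen gene Bcam (-0.55) and the dystrophin gene Dmd (-0.54).

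Other integrin ligands were more often higher in yolk sac, in 12 of 21 cases against 5 (median -0.52, against 0.03 over all genes). The leukocyte ligand Icam1 (-4.07), the collagen chain Col1a1 (-3.02) and Postn (-1.82) led, and Fbn2 (2.31), Edil3 (0.94) and Vcam1 (0.55) led in embryo. Of 26 adaptors and signalling genes 12 were higher in yolk sac, such as Fermt3 of blood cells (-2.18), Tln1 (-0.94) and Cd151 (-0.79), and 4 in embryo, among them Flna (1.01), Tln2 (0.82) and Ptk2 (0.66).

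The second comparison asks what MEHP did in embryos without NTD. The laminin beta chains Lamb1 and Lamb2 and the integrin chain Itgb1 were higher in MEHP embryos than in control embryos, the leukocyte integrin chain Itgb7 was lower, and the laminin-binding alpha chains Itga3 and Itga6 were not called. Of 35 members 3 rose, 1 fell and 31 did not pass, which is 11.4% of members where 9.72% of all genes passed, a share near that of all genes. By direction, 3.82% of all genes rose and 5.9% fell. The members' median was 0.01, against -0.04 over all genes.

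**Figure D2:**
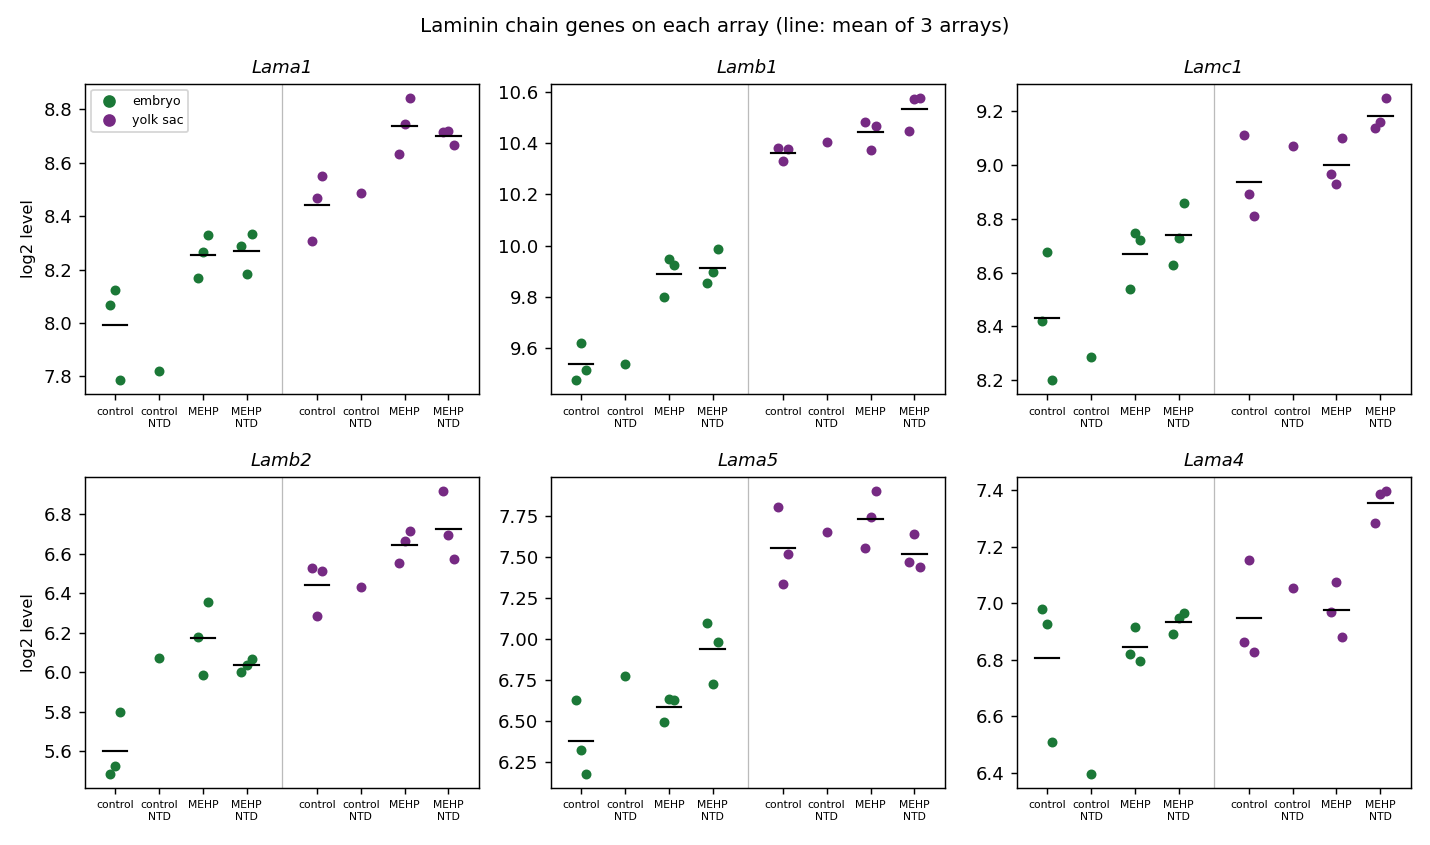
Log2 level (y axis) of 6 laminin genes on each of the 20 arrays (points), by tissue, exposure and NTD group (x axis), with a line at the mean of each group of 3. Lamb1 in embryos lies at 9.47 to 9.62 in controls and at 9.80 to 9.99 on all 6 MEHP arrays.

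Lamb1 read 9.80, 9.95 and 9.92 in MEHP embryos without NTD, above all 3 control embryos (9.47, 9.62 and 9.51). The rise was 0.35 ± 0.073 (adjusted p = 0.0215, or 1.28-fold). The other 3 probe sets of Lamb1 were also higher, by 0.61, 0.73 and 0.21. Lamb2 read 6.18, 5.99 and 6.36 against 5.49, 5.53 and 5.80, again with no overlap (0.57 ± 0.107, adjusted p = 0.0165, or 1.48-fold). The single control embryo with NTD read 9.54 for Lamb1, within the range of the other controls, and 6.07 for Lamb2, above all 3 of them.

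Their partner chains had positive differences that did not pass. Lama1 read 8.17, 8.26 and 8.33 with MEHP, all above the controls (0.26 ± 0.095, adjusted p = 0.104). Lamc1 overlapped with the controls at 8.54, 8.75 and 8.72 (0.24, adjusted p = 0.213), as did Lama5 at 6.49, 6.64 and 6.63 (0.21). Lama2 (0.06), Lama3 (0.05) and Lama4 (0.04) differed by less, and Lamb3 (-0.16) and Lamc3 (-0.08) were on the negative side. None of these passed.

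Itgb1 read 8.93, 9.02 and 8.97 in MEHP embryos against 8.52, 8.52 and 8.72 in controls, with no overlap (0.38 ± 0.078, adjusted p = 0.0199, or 1.30-fold). Its probe sets disagreed: the second brightest, at a mean of 8.8 against 8.9, gave 0.11 (adjusted p = 0.39) and the third 0.22 (0.12). The mean of all its probe sets rose by 0.08 and did not pass (adjusted p = 0.4). The single control embryo with NTD read 8.82, above the other controls and below the MEHP embryos.

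The alpha chains that pair with Itgb1 did not pass: Itga3 differed by 0.01, Itga6 by -0.02, Itga5 by -0.01 and Itga7 by 0.09. Itgb4 (0.10) and Dag1 (-0.04) did not pass either. In 0 of the 10 pairs of a laminin alpha chain and a receptor did either gene pass. Itgb8 read 8.78, 8.79 and 8.51 against 7.28, 8.01 and 8.44. The groups did not overlap, but the controls were spread over more than 1 log2 unit and it did not pass (0.78 ± 0.298, adjusted p = 0.116). With 1 array left out it ranged from 0.47 to 1.05 and passed without control 3 (adjusted p = 0.0487). It passed in a fit of all 20 arrays too (0.0399), and was -0.21 with the nonspecific level as a covariate.

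**Figure D3:**
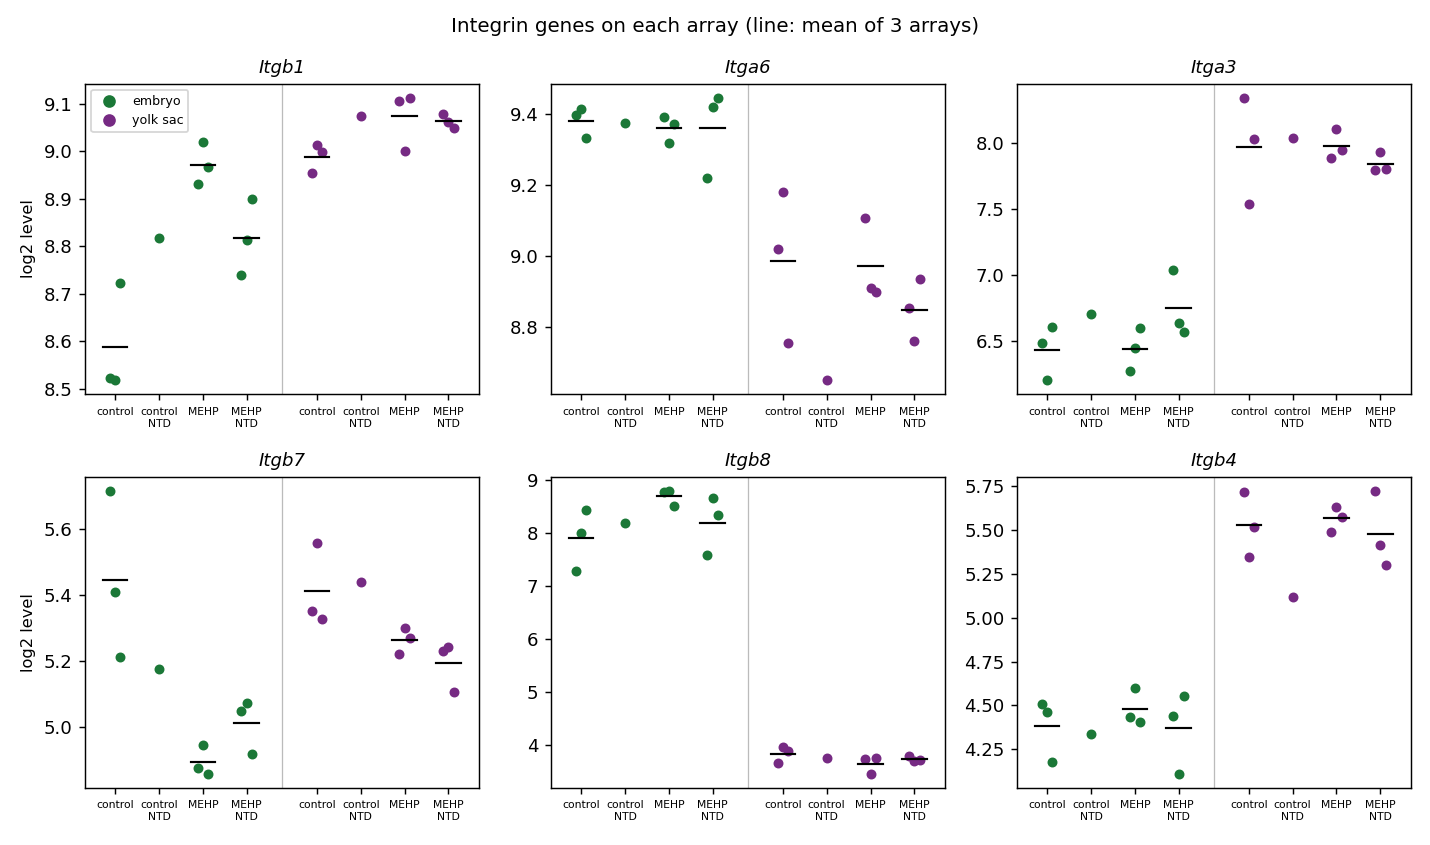
Log2 level (y axis) of 6 integrin genes on each of the 20 arrays (points), by tissue, exposure and NTD group (x axis), with a line at the mean of each group of 3. Itgb1 in embryos is at 8.52 to 8.72 in controls and 8.93 to 9.02 with MEHP without NTD, while Itga6 and Itga3 in embryos overlap between these groups.

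Itgb7, a dim gene whose protein guides lymphocytes to the gut, read 4.88, 4.95 and 4.86 with MEHP against 5.71, 5.41 and 5.21 (-0.55 ± 0.112, adjusted p = 0.0198), a fall larger than the 0.23 by which nonspecific probe sets were lower. Itgb2 (-0.22, adjusted p = 0.0664) and Itgal (-0.28, 0.0725), which form the leukocyte receptor for Icam1, were lower by about that amount and did not pass. With the nonspecific level as a covariate 0 members passed, so Itgb7 did not pass there either. The macrophage and leukocyte markers were lower on these arrays too, at a summed level of 7.84 to 7.87 against 7.99 to 8.16. Their median lay near the floor (4.12 to 4.19 against 4.30 to 4.53), so this fall cannot be told apart from the nonspecific shift. Of their 8 genes Mpo fell (-0.36) and 0 rose. Their part in the Itgb7 fall was not tested.

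Parietal endoderm makes a thick laminin-111 membrane outside the embryo, so its markers are given beside the laminin rise. Of 6 markers Krt19 rose (0.54) and 0 fell, and the summed level was 10.23 to 10.36 with MEHP and 9.96 to 10.23 in controls. Whether this list reads parietal endoderm in these tissues was not tested. Its median was higher in control embryos (7.62 to 7.80) than in control yolk sacs (6.67 to 6.89). Its summed level ran the other way (9.96 to 10.23 against 10.23 to 10.51). Of 10 visceral endoderm markers 0 passed (9.98 to 12.37 with MEHP and 9.45 to 12 in controls). Of 6 neural progenitor markers 1 rose and 0 fell, at a summed level of 12.14 to 12.19 against 11.84 to 12.06, with no overlap. Of 6 cardiac markers 1 rose and 0 fell. Their summed level overlapped (13.526 to 13.592 against 13.392 to 13.528), while their median did not (10.54 to 10.58 against 10.31 to 10.33). Of 6 somite and mesenchyme markers 1 rose and 1 fell, and 0 of 7 endothelial markers passed. The part of parietal endoderm, neural, cardiac or somite cells was not tested. With the visceral endoderm level as a covariate, Lamb1 (0.35), Lamb2 (0.56), Itgb1 (0.39) and Itgb7 (-0.55) kept their size and passed.

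The 4 calls rest on few arrays. Without the 2 embryo arrays highest in visceral endoderm markers, differences were 0.38 for Lamb1 (adjusted p = 0.096), 0.44 for Lamb2 (0.114), 0.35 for Itgb1 (0.127) and -0.55 for Itgb7 (0.114). With 1 of the 6 arrays left out, the number of members called ranged from 0 (without MEHP 3) and 1 (without control 1, MEHP 1 or MEHP 2) to 5 (without control 3); over these fits Lamb1 ranged from 0.32 to 0.40 and Lamb2 from 0.48 to 0.67. Control 3 had the widest gap of the 6 between the 3′ and 5′ probe sets of Actb, a sign of RNA quality. The gap was 0.88 on the log2 scale, against 0.41 to 0.69 on the other arrays. Without control 3 all 4 calls still passed: Lamb1 (0.34, adjusted p = 0.0319), Lamb2 (0.67, 0.00809), Itgb1 (0.45, 0.0101) and Itgb7 (-0.67, 0.00745). The part of RNA quality in these differences was not tested.

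Of 22 basement membrane partners 3 rose and 3 fell (median 0.02), where 3.82% of all genes rose and 5.9% fell. Fras1 and Frem1, which form a complex under embryonic epithelia, rose by 0.56 ± 0.093 (adjusted p = 0.0105) and 0.50 ± 0.115 (0.027), and Smoc2 by 0.57 ± 0.103 (0.0137). Hspg2, which encodes perlecan, fell by 0.35 on the log2 scale (adjusted p = 0.0242), and so did Col15a1 (-0.38, 0.0217) and the dim Col4a3 (-0.47, 0.0143). Of 12 other laminin receptors the syndecan Sdc1 rose (0.32, adjusted p = 0.0336) and Sdc3 fell (-0.38, 0.0121). Of 21 other integrin ligands Col1a1 (0.67), Thbs1 (0.64) and Ccn1 (0.47) rose and Vcam1 fell (-0.50). By limma, 0 of 26 adaptors and signalling genes passed.

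In MEHP embryos with NTD, compared with the same 3 control embryos, Lamb1 and Lamb2 were again higher and Itgb7 lower, and Lama5 was higher as well. The comparison shares its controls with the one above, so its values are side by side and not independent. Of 35 members 3 rose, 1 fell and 31 did not pass, which is 11.4%, where 7.45% of all genes passed (3.21% up and 4.24% down). The median was -0.02, against -0.05 over all genes.

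Lamb1 read 9.86, 9.90 and 9.99 in these embryos (0.38 ± 0.073, adjusted p = 0.0208), above all controls. Lamb2 read 6.0, 6.04 and 6.07 (0.43 ± 0.107, adjusted p = 0.0392), also above them. Lama5 read 7.10, 6.73 and 6.99 against 6.63, 6.33 and 6.18, with no overlap (0.56 ± 0.124, adjusted p = 0.0291, or 1.47-fold), and its second probe set gave 0.56 too. In the control embryo with NTD, Lama5 read 6.78, above the other controls. The 3 chains of laminin-111 differed by 0.28 (Lama1, adjusted p = 0.098), 0.38 (Lamb1) and 0.31 (Lamc1, 0.127).

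Itgb1 read 8.74, 8.81 and 8.90 and did not pass (0.23 ± 0.078, adjusted p = 0.0934). Itga3, a receptor chain for Lama5, read 7.04, 6.64 and 6.57, overlapping the controls (0.32), and Itga6 differed by -0.02. In 2 of the 10 laminin and receptor pairs 1 gene passed, each time Lama5. Itgb7 read 5.05, 5.07 and 4.92 (-0.43 ± 0.112, adjusted p = 0.0446), and Itgb2 just missed (-0.25, 0.0512). Macrophage and leukocyte markers summed to 7.69 to 7.89, with Csf1r (-0.67) and Mpo (-0.40) lower of 8. Their median was near the floor here too (4.12 to 4.25).

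Of the 6 listed parietal endoderm markers 3 were higher, Krt19 (0.53), Snai1 (0.47) and Fst (0.48), at a summed level of 10.33 to 10.50. Whether the list reads parietal endoderm here was not tested. Cardiac markers were higher in 4 of 6 (13.77 to 13.95 against 13.39 to 13.53 in controls). Of 6 neural progenitor markers 0 were higher and 1 lower (11.78 to 12.04 against 11.84 to 12.06). The part of these cells in the laminin differences was not tested. Without the 2 arrays highest in visceral endoderm markers 0 members were called, with Lamb1 at 0.42 (adjusted p = 0.0549), Lama5 at 0.53 (0.104), Lamb2 at 0.39 (0.0982) and Itgb7 at -0.45 (0.118). With 1 array left out the count was 0 (without MEHP with NTD 3), 1 (without control 1, control 2 or MEHP with NTD 2), 2 (without MEHP with NTD 1) or 5 (without control 3).

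Of the basement membrane partners Fras1 (0.66 ± 0.093, adjusted p = 0.00802), Frem1 (0.52, 0.0286), Col4a6 (0.50, 0.0176) and Smoc2 (0.46) rose, and Col15a1 (-0.46), Col4a3 (-0.36) and Hspg2 (-0.31) fell. Sdc1 rose (0.33, adjusted p = 0.0354) and Sdc3 fell (-0.26, 0.043). Tln1, which links integrin tails to actin, rose (0.42 ± 0.106, adjusted p = 0.0421), the single adaptor of 26 to pass. By limma, 0 of 21 other integrin ligands passed.

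**Figure D4:**
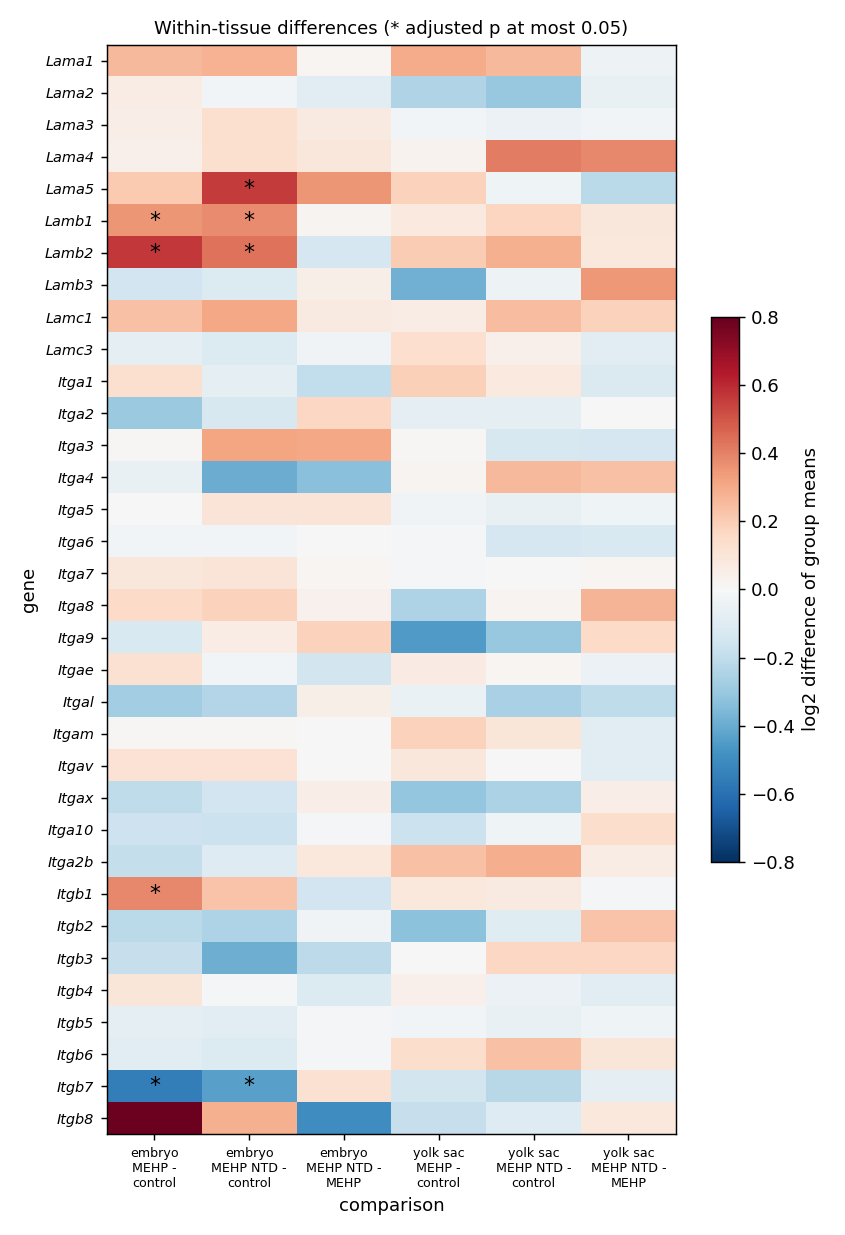
Log2 differences of group means (colour) for laminin and integrin genes (rows) in the 6 comparisons within a tissue (columns), with a star where limma's adjusted p is at most 0.05. Stars appear in the 2 embryo columns against control, 4 in each, and in no other column.

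The next comparison set MEHP embryos that had an NTD against those that had none. By limma 0 of 35 members passed. Over all genes 0.024% passed (0.00962% higher and 0.0144% lower with NTD). Lama5 had the smallest p of the members: all 3 embryos with NTD (7.10, 6.73 and 6.99) lay above all 3 without (6.49, 6.64 and 6.63), a difference of 0.35 ± 0.124 (adjusted p = 0.734). Itga4 came next, at 5.2, 5.19 and 5.19 with NTD against 5.62, 5.32 and 5.65 (-0.34 ± 0.125, adjusted p = 0.767), followed by Itga3 (0.31, 0.891).

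In yolk sacs, MEHP moved no laminin or integrin gene past the threshold. Of 35 members 0 passed by limma in the comparison without NTD, where 0.313% of all genes passed (0.192% up and 0.12% down). Lama1 read 8.63, 8.74 and 8.84 with MEHP against 8.31, 8.47 and 8.55, with no overlap (0.30 ± 0.078, adjusted p = 0.113). The dim genes Itgax (-0.31 ± 0.067, adjusted p = 0.0776) and Lamb3 (-0.38 ± 0.088, 0.0854) were lower, where the nonspecific probe sets were lower by 0.21. Lamb1 differed by 0.08, Lamb2 by 0.20 and Itgb1 by 0.08.

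In yolk sacs of MEHP conceptuses with NTD, against the same controls, 0 of 35 members passed by limma, where 2.38% of all genes passed (1.4% up and 0.976% down). Lama4 read 7.28, 7.39 and 7.40 against 6.87, 7.15 and 6.83 in controls, with no overlap (0.41 ± 0.092, adjusted p = 0.0515). The MEHP yolk sacs without NTD read 6.97, 7.07 and 6.88 and the control yolk sac with NTD 7.05, all below the yolk sacs with both. Itgax (-0.25, adjusted p = 0.0758) and Lama1 (0.26, 0.109) followed. Among the adaptors Flna rose (0.45 ± 0.072, adjusted p = 0.0264).

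Between MEHP yolk sacs with and without NTD, 0 of 35 members passed by limma, where 0% of all genes passed. Lama4 (0.38 ± 0.092, adjusted p = 0.22) and Lamb3 (0.34 ± 0.088, 0.254) had the smallest p. Itga8 (0.27) was next, at an adjusted p of 0.521.

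The difference in MEHP effect between embryo and yolk sac was tested itself. By limma 0 of 35 members passed, where 0.0769% of all genes passed (0.0289% higher and 0.0481% lower in embryo). The effect on Itgb1 was larger in embryo by 0.30 ± 0.091 (adjusted p = 0.187), on Lamb1 by 0.27 ± 0.090 (0.219) while for Itgb7 the difference of effects was -0.40 ± 0.139 (0.24). So the rises in embryos are not shown to be larger than in yolk sacs. For the NTD difference within MEHP, 0 of 35 passed, where 0.0144% of all genes passed. Lama5 came first (0.57 ± 0.188, adjusted p = 0.435), then Lamb3 (-0.30, 0.609) and Itga4 (-0.57, 0.62).

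The authors' own tests of exposure pooled conceptuses with and without NTD, 6 exposed against 4 control arrays per tissue. In the authors' deposited table for embryos, 9 members had an adjusted p of at most 0.05 for exposure. The share of all probe sets passing in the deposited tables was not counted, so these member counts are not read as an excess. Among them the authors' deposited table gives all 3 chains of laminin-111 as higher: Lama1 (0.31, adjusted p = 0.0149), Lamb1 (0.36, 0.00133) and Lamc1 (0.31, 0.0339). The authors' deposited table also has Lamb2 (0.38, adjusted p = 0.0341) and Itgb1 (0.25, 0.0391) higher, and Itgb7 (-0.42), Itgal (-0.27), Itgb2 (-0.23) and Itga10 (-0.16) lower. Itgal, Itgb2 and Itga10 are dim, and falls of this size cannot be told apart from the nonspecific shift (-0.23 in embryos without NTD). For yolk sacs 2 members passed in the authors' deposited table, Lama1 (0.27, adjusted p = 0.0305) and Itgax (-0.25, 0.0278). Itgax is dim too, and the nonspecific shift in yolk sacs was -0.21. For NTD 0 members passed in the authors' deposited table of either tissue. That test pooled control and MEHP arrays, unlike the comparisons within MEHP above.

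Over the 9 comparisons 10 members passed in none, among them Itga2, Itga7, Itga10, Itgae, Itgam, Itgb6, Lama2, Lama4 and Lamb3. Of the 10, Lama4 is the sole one at or above the level of the median gene. Within a tissue 5 members passed at least once, Lamb1, Lamb2, Lama5, Itgb1 and Itgb7, all in embryos.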

How the data were processed

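Affymetrix arrays measured RNA of mouse embryos and visceral yolk sacs. The deposited values are log2 levels. RMA is the method named in the submitters' processing notes, beside limma and R 2.15.1. The authors' comparison tables hold, per the file headers, log2 differences, each also as a ratio, and p-values. Raw signals were not used here. Groups follow the arrays that these tables averaged (the deposited log2 differences are met by class means). Array numbers follow the columns' order. All control arrays precede all MEHP arrays, and within MEHP those without NTD precede those with NTD, so array order cannot be told apart from either.

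The arrays hold 45141 probe sets, of which 104 control sets were dropped, as were 6670 that name no gene. Symbols were updated by Entrez identifier for 35403 (3025 changed, 0 of them members) and kept for 2964. With limma 3.58.1 in R 4.3.3, 1 mean per group was fitted over a tissue's 10 arrays, or 8 means over 20 arrays between tissues, where embryos and yolk sacs of 1 conceptus would count as independent. P-values were adjusted (Benjamini-Hochberg) over 20794 genes at 0.05. Differences are log2 with limma's SE, 3 arrays a group. In simulated data of 20794 genes, 100 were changed by 0.5 and 100 by 1, with noise drawn independently for each gene. Of changes of 0.5 and of 1, 58% and 90% were recovered in the embryo comparison of MEHP with control. These shares were 65% and 93% in the same yolk sac comparison and 42% and 89% for the difference between tissues. A larger share of genes, 9.72%, passed in the embryo comparison itself, so recovery there may differ.

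Members and gene lists were chosen with earlier results of these data known. Named were the laminin chains (1 member, though counted, is not reported here by name), Itga3, Itga6, Itga7, Itgb1, Itgb4 and Dag1; other members that passed, up to 15 per direction; up to 3 passing genes per list, comparison and direction (basement membrane partners, other laminin receptors, other integrin ligands, integrin adaptors and signalling); and up to 3 members of smallest p where none passed. Other members and marker genes were named after their values were seen, to account for all members and for the markers beside them. Of the listed genes Fermt1 and Prl2c2 were not measured. Promoters came from RefSeq's GRCm38.p6 table. Lama1 and Lamc1 have no entry there. Alternatives were quantile and cyclic loess normalization, no dim genes, trend and robust variances, other sets of arrays, the mean of a gene's probe sets, the nonspecific level as a covariate, the sample headings, leaving out each array, and, chosen after seeing the data, the visceral endoderm level as a covariate and embryos without the 2 arrays highest in it. Figures used Python with matplotlib and pandas.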

Additional observations from a re-analysis of the deposited data

How the results depend on the processing

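No paired analysis was possible because the array columns carry no replicate numbers. Between control tissues the count of 24 members was 23 to 25 with 1 array left out. Without dim genes 16 members were tested and 15 passed, as did 15 of these 16 in the main fit. Of the 24 members called, 22 passed under each alternative that kept the groups and tested them, and Lama3 and Itgal did not; the mean of all probe sets made some of these differences smaller by over 1.5 times, as given above. The embryo MEHP count of 4 was 0 with the nonspecific level as a covariate, which itself parts the exposures, 0 without the 2 arrays highest in visceral endoderm markers, and 0 to 5 with 1 array left out. It was 6 with all 20 arrays in 1 fit (4 shared) and 6 with the mean of all probe sets (3 shared). For MEHP embryos with NTD against control the count of 4 was 2 after quantile normalization, 1 after cyclic loess and 0 with only the arrays compared. Of the 16 members tested without dim genes 2 passed, against 3 of these in the main fit. The count was 0 with the nonspecific covariate, 0 without the 2 arrays named and 2 with the visceral endoderm covariate. It was 0 to 5 with 1 array left out, and 6 with all 20 arrays and with the mean of all probe sets. Lamb1 kept its call there after both normalizations and Lama5 did not (adjusted p = 0.0866 and 0.0737). In yolk sacs with MEHP and NTD the count of 0 was 1 without dim genes, with trend and robust variances and with all 20 arrays (Lama4 each time, 0.41), and 1 with the mean of all probe sets (Lamb1, 0.31). The count of 0 for the difference in MEHP effect was 0 to 1 with 1 array left out, Itgb1 passing without control embryo 3 (0.37, adjusted p = 0.0489). Under the sample headings, which put 8 arrays in another tissue, counts were 4 between control tissues, 15 for MEHP embryos, 0 for MEHP embryos with NTD, 16 for NTD in yolk sacs and 20 and 23 for the differences between tissues. Under them the tissue difference of Itgal (0.0195) and Itgax (0.0317) and the embryo MEHP difference of Itgb2 (0.714) and Itgb8 (-4.07) turned sign, as did differences that had not passed, such as the embryo MEHP difference of Itgal (0.26) and the tissue difference of Lamb3 (0.27). By the groups used here, that embryo MEHP comparison sets control yolk sacs against control embryos. Its values are the control tissue differences with the sign turned (4.07 for Itgb8 and -0.714 for Itgb2 as embryo minus yolk sac). Its count of 15 therefore does not read MEHP, and the other counts under the headings also rest on groups with arrays moved between tissues. With the nonspecific covariate the embryo MEHP difference of Itgb8 turned to -0.21. The cause of changes under alternatives other than the sample headings was not tested. Signal over background limits Itga7, Itgam and the other dim members, and 3 arrays a group limit all.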
